A study of Mus musculus with 10 samples.

Results

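The Slc25 genes encode the mitochondrial carrier family, and 39 of its genes were examined in mouse hepatocytes that lacked the transcription factor Nrf2, the NF-κB protein p65, or the pair of them. The members were the genes of the deposited count table whose symbol is Slc25a followed by a number and whose mean over all libraries was at least 10 estimated counts. The table holds 21939 genes, of which 47 carry such a symbol, and 8 of these fell below the limit. Hepatocytes were isolated from 10 adult male mice on day 12 after they received AAV8Cre. The labels give an age of 8 to 9 weeks and do not say whether it is the age at injection or at isolation. AAV8Cre is an adeno-associated viral vector that expresses Cre recombinase under the hepatocyte-specific thyroxine-binding globulin promoter. All mice, controls included, received this virus. The controls were C57BL6/j mice, and the paper gives the floxed mice the same genetic background. There was 1 library per mouse. Control mice without a floxed allele gave 3 libraries, Nrf2 flox/flox mice (Nrf2 KO) 2, and p65 flox/flox mice (p65 KO) 2. Mice with floxed alleles of both genes (DKO) gave 3 libraries. Presence of the floxed alleles and loss of the gene therefore cannot be told apart in the comparisons with control.

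Proteins of this family sit mostly in the inner mitochondrial membrane and move metabolites, nucleotides, and cofactors between the cytosol and the matrix. They are made in the cytosol and inserted by a dedicated import route. In hepatocytes they serve fatty acid oxidation, urea synthesis, gluconeogenesis, and the shuttling of reducing equivalents, and some members work outside the inner membrane, such as a peroxisomal carrier and an outer membrane factor of mitochondrial fission.

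Total counts per library ranged from 33707165 to 49897382. The 8 hepatocyte markers examined were detected in every library. Of these, Hnf4a and Cps1 were higher than control in p65 KO, and Tat and Cps1 in DKO (edgeR adjusted p at most 0.05). Beside them, 8.13% and 2.61% of all tested genes were higher. Markers of other liver cells also moved with the genotype. The summed normalised count of 11 Kupffer cell and macrophage markers was 367 to 927 in control, 258 to 791 in Nrf2 KO, 4392 to 5985 in p65 KO, and 1613 to 2866 in DKO libraries. For 6 sinusoidal endothelial markers these ranges were 456 to 1019, 584 to 1179, 2266 to 3149, and 1127 to 1584, and for 6 stellate cell markers 142 to 335, 133 to 209, 1539 to 1562, and 257 to 699. T and NK cell markers summed to at most 14.2 and neutrophil markers to at most 18.9 in any library, and the 4 cholangiocyte markers to between 104 and 253. The 6 erythroid markers summed to 3362 to 4675 in control, 3650 to 3783 in Nrf2 KO, 3133 to 3516 in p65 KO, and 4730 to 5605 in DKO libraries. Most of this came from Alas2, the erythroid form of the first haem synthesis enzyme. The median log2 fold change of the 5 erythroid markers tested was 2.06 in DKO against control and 2.96 in DKO against p65 KO. None of them passed edgeR's test in either comparison. The part of these cells in the changes below was not tested, and in such bulk libraries fewer cells of a type and less RNA per cell cannot be told apart. The total of Nfe2l2, which encodes Nrf2, was higher in the libraries labelled Nrf2 KO and DKO (log2 fold changes of 1.21 and 1.02, edgeR adjusted p = 0.00488 and 0.00347), and the total of Rela, which encodes p65, differed by a log2 fold change of -0.07 between p65 KO and control (edgeR adjusted p = 0.765). The table gives 1 total per gene and does not separate the deleted exons, so these totals do not check the labels.

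The family spanned a wide range of levels, and its most abundant members did not pass the test in any comparison. Levels between members are compared as normalised counts per kilobase of mean transcript length, where a normalised count is the deposited count scaled by the library's effective size. The mean over the 10 libraries was highest for Slc25a47, a liver-enriched carrier linked to NAD, at 14949 per kilobase, and for Slc25a5, an ADP/ATP carrier, at 10377. Slc25a39 (glutathione import) followed at 5498, Slc25a1 (citrate export) at 4382, and Slc25a23 (ATP-Mg/phosphate exchange) at 4194. These 5 members held 59.2% of the members' summed count per kilobase, and the highest member exceeded the lowest, Slc25a36, by 3268-fold. Slc25a1 and Slc25a23 overlapped in their values per kilobase, and with the longest transcript taken for the length, the phosphate carrier Slc25a3 moved ahead of Slc25a23. Of the 31-base stretches in the transcripts of Slc25a5, 39.2% also occur in 14 other genes, so its level is uncertain.

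**Figure D1:**
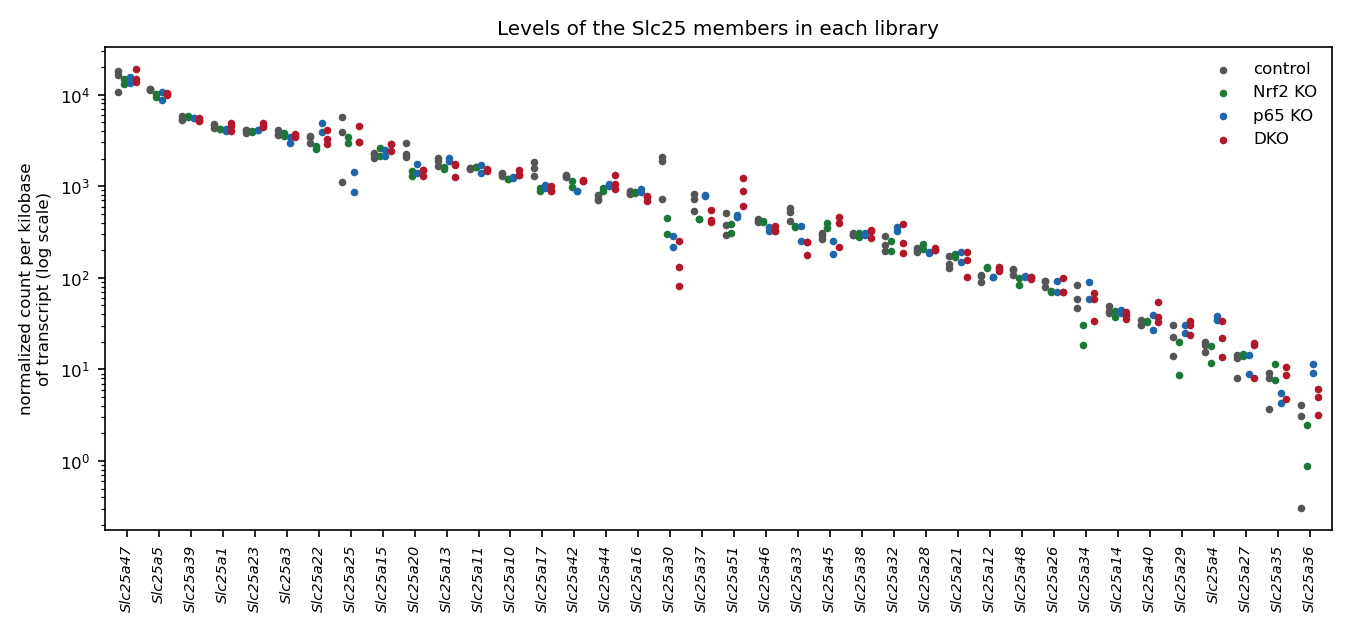
Normalised counts per kilobase of mean transcript length (log scale) of 38 of the 39 members, ordered by their mean, with 1 point per library coloured by genotype. The points of most members lie close together against the range between members, from Slc25a47 at a mean of 14949 to Slc25a36 at 4.57. Those of Slc25a30, Slc25a25, and Slc25a36 itself spread widely.

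Slc25a47 was at 27100, 17495, and 29854 normalised counts in the control libraries, 24407 and 21278 in Nrf2 KO, 25679 and 21790 in p65 KO, and 24533, 31383, and 22765 in DKO. All genotypes overlapped. Slc25a5 was at 14710, 14235, and 14688 in control, 12170 and 13117 in Nrf2 KO, 11301 and 13627 in p65 KO, and 13505, 12769, and 12892 in DKO. Each knockout library of Slc25a5 lay below the controls, by log2 fold changes of only -0.20, -0.22, and -0.16 that did not pass the test (edgeR adjusted p = 0.664, 0.208, and 0.389). Slc25a39 ranged from 11216 to 12900, Slc25a1 from 6831 to 8268, and Slc25a23 from 9012 to 11403 over the 10 libraries. The median coefficient of variation of the 39 members among the 3 controls was 9.61%. The members' counts made up between 0.327% and 0.408% of the total count of a library. Their summed normalised count was 149001 ± 12191 in control (SD, n = 3), 134424 ± 1420 in Nrf2 KO (n = 2), 133310 ± 45.3 in p65 KO (n = 2), and 145343 ± 9026 in DKO (n = 3), and the order of the genotypes depended on the scaling, since p65 KO came to 150036 with libraries scaled to equal totals.

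Against control, 1 member passed the test in Nrf2 KO, 6 passed in p65 KO, and 6 passed in DKO. The test was edgeR's quasi-likelihood test with Benjamini-Hochberg adjustment over all 13641 genes tested. Members passed at an adjusted p of at most 0.05. The member lower in Nrf2 KO was Slc25a17. In this comparison 0.726% of all tested genes passed (0.132% higher and 0.594% lower), and 0.850% of those averaging 10 counts or more. In p65 KO 1 member was higher and 5 were lower, which at 15.4% of the members was near the 14.9% of all tested genes (8.13% higher and 6.77% lower) and the 16.6% of genes averaging 10 counts or more. In DKO 2 members were higher and 4 lower, also 15.4% of the members, beside 5.45% of all tested genes (2.61% higher and 2.84% lower) and 6.28% of genes averaging 10 counts or more. A log2 fold change of at least 1 was reached in addition by 0, 1, and 3 members, beside 0.550%, 6.59%, and 2.38% of all tested genes. The 3 comparisons share the control libraries. The counts depended on single libraries. Without any 1 library other than control 3 the Nrf2 KO count was 0, and without control 3 it was 3. The p65 KO count was 0 without p65 KO 1, 2 without control 1, and 3 without p65 KO 2, and the DKO count was 3 without control 1. Scaling to equal totals moved the median log2 fold change of the genes averaging 10 counts or more in p65 KO by 0.18. With it 3 members passed there, Slc25a22 and Slc25a44 higher and Slc25a30 lower, and the log2 fold changes of Slc25a17, Slc25a20, Slc25a33, and Slc25a42 kept their sign.

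The members' median log2 fold change against control was -0.12 for Nrf2 KO, -0.03 for p65 KO, and 0.01 for DKO, beside 0.00, -0.04, and 0.00 over the 11646 genes averaging 10 counts or more. In Nrf2 KO 13 of 39 members had a positive log2 fold change, beside 50.8% of those genes. In Nrf2 KO 4 members had all knockout libraries above all controls and 14 had them below, beside 14.8% and 13.6% of all tested genes. In p65 KO these were 5 and 13 members, beside 26.2% and 23.8% of all tested genes, and in DKO 6 and 10 members, beside 13.2% in each direction.

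**Figure D2:**
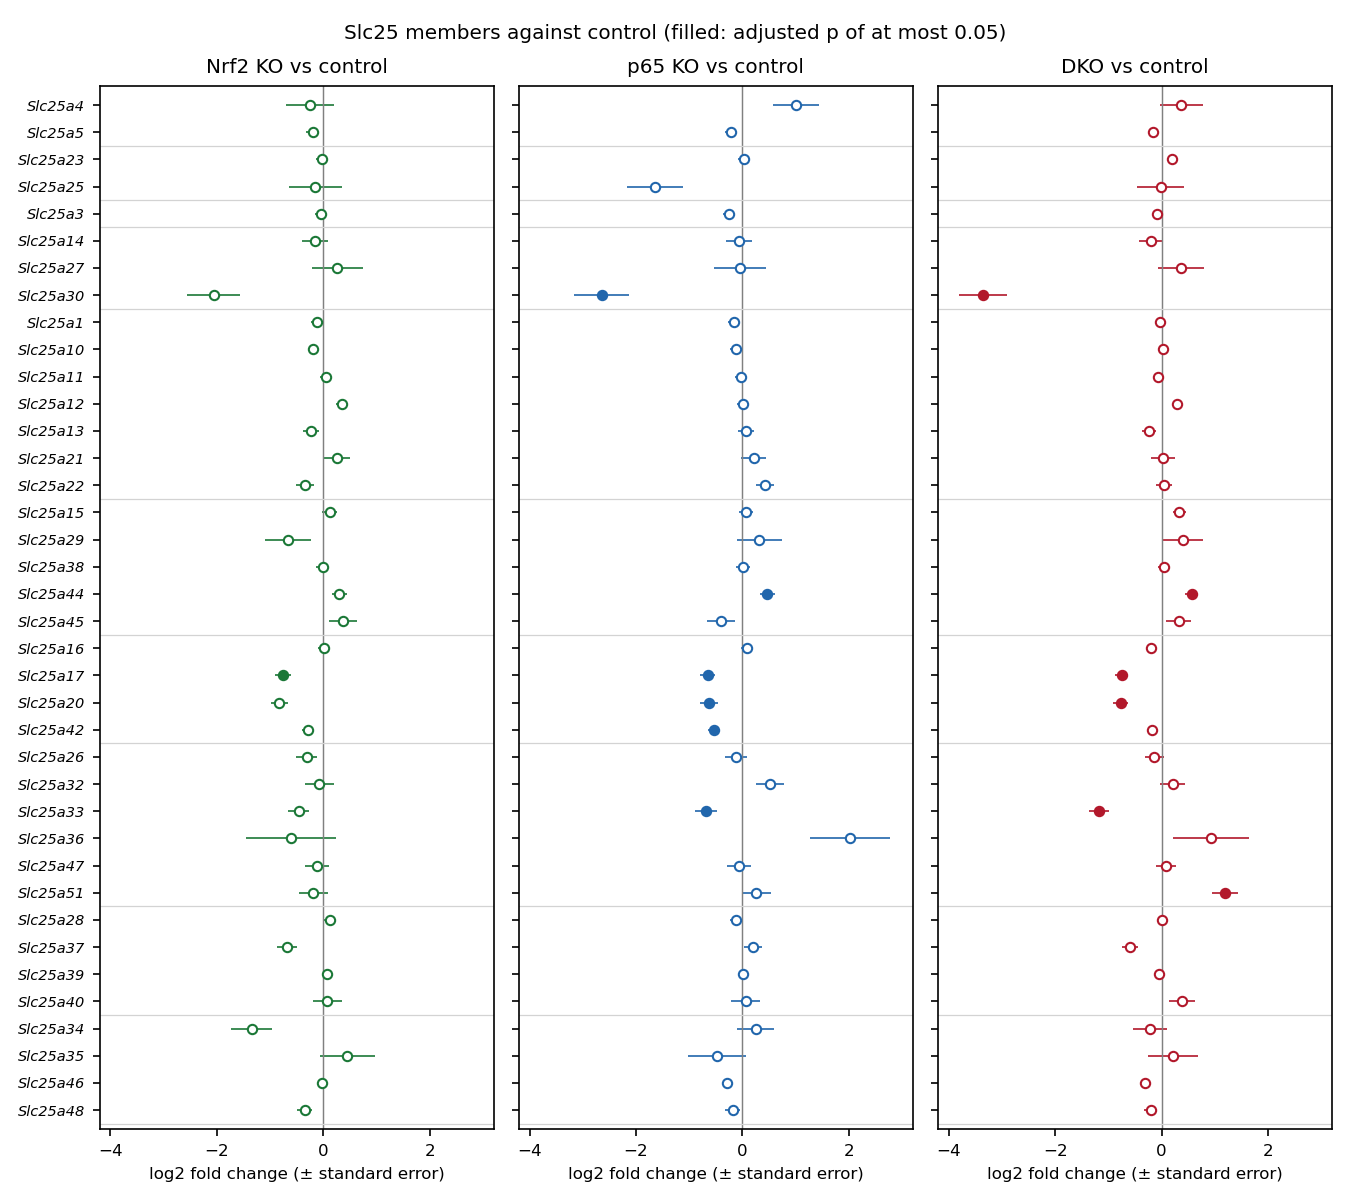
Log2 fold change against control (± standard error of the fit) of 38 of the 39 members in Nrf2 KO, p65 KO, and DKO, grouped by substrate and separated by grey lines. Filled points passed an adjusted p of at most 0.05, and most members lie near 0 with Slc25a30 far to the left in all 3 panels.

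Among the relatives of the uncoupling proteins, which are known for proton leak across the inner membrane, Slc25a30 fell furthest of all members. Slc25a30 was at 4970, 5498, and 1903 normalised counts in control, 791 and 1189 in Nrf2 KO, 572 and 748 in p65 KO, and 344, 651, and 214 in DKO. Every knockout library lay below the lowest control, although control 3 was itself far below the other controls. The level was 10.2-fold lower in DKO (log2 fold change -3.35, SE 0.455, edgeR adjusted p = 0.00304) and 6.25-fold lower in p65 KO (-2.64, SE 0.515, adjusted p = 0.00941). In Nrf2 KO the log2 fold change was -2.06 (SE 0.498), which did not pass (adjusted p = 0.121). This change did pass in 4 of 19 alternative analyses: DESeq2, no filter, the replicate number as a block, and without control 3. The p65 KO call was lost when p65 KO library 1 was left out (adjusted p = 0.0969), and the DKO call was kept with each library left out. The other uncoupling-type members, Slc25a14 and Slc25a27, did not pass in any comparison, with log2 fold changes against control between -0.21 and 0.36. The 250 bases before the start of the canonical transcript of Slc25a30, the member with the largest change, are shown 5′ to 3′ on the minus strand (chr14:76024478-76024727, GRCm39), and hold none of the motifs searched.
Slc25a30: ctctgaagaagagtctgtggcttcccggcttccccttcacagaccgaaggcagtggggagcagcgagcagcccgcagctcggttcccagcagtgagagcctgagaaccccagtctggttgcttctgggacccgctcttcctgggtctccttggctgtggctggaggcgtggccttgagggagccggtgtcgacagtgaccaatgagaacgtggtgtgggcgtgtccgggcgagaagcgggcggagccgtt

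Of the 4 carriers of acyl groups and coenzyme A, 1 fell in Nrf2 KO, 3 fell in p65 KO, 2 fell in DKO, and none rose. Over all tested genes, 0.594%, 6.77%, and 2.84% fell. Acylcarnitine, coenzyme A, and peroxisomal carriers were listed apart in the plan and are joined in this group. Slc25a17, a carrier of the peroxisomal membrane for cofactors such as coenzyme A, was at 3152, 2693, and 2207 normalised counts in control, 1656 and 1517 in Nrf2 KO, 1630 and 1775 in p65 KO, and 1740, 1519, and 1513 in DKO. The knockout libraries lay in a narrow band below all controls. Its log2 fold changes were -0.76 in Nrf2 KO (SE 0.148, edgeR adjusted p = 0.0491), -0.66 in p65 KO (SE 0.148, adjusted p = 0.0170), and -0.75 in DKO (SE 0.131, adjusted p = 0.0107). The Nrf2 KO call passed in only 7 of 19 alternative analyses and was lost when any 1 library other than control 3 was left out (adjusted p over the 19 alternatives up to 0.506), whereas the DKO call passed in all 19. The p65 KO call passed in 15 and was lost with equal totals and without control 1, p65 KO 1, or p65 KO 2 (adjusted p up to 0.129).

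Slc25a20, the carnitine/acylcarnitine carrier that brings fatty acids into the matrix for oxidation, was at 4951, 3492, and 3754 normalised counts in control, 2421 and 2173 in Nrf2 KO, 2310 and 2926 in p65 KO, and 2159, 2503, and 2489 in DKO. All knockout libraries were again below all controls. The log2 fold changes were -0.82 in Nrf2 KO (SE 0.167, edgeR adjusted p = 0.0590), -0.63 in p65 KO (SE 0.166, adjusted p = 0.0292), and -0.77 in DKO (SE 0.146, adjusted p = 0.0158). The Nrf2 KO change, which did not pass in the main analysis, passed in 3 of 19 alternatives: DESeq2, no filter, and limma. Without control 1, the highest library, the p65 KO and DKO calls were both lost. The p65 KO call passed in 14 of 19 alternatives and was also lost without p65 KO 1 (adjusted p over the alternatives up to 0.222), and the DKO call passed in 17 and was also lost without DKO 1 (up to 0.0551).

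Slc25a42, which imports coenzyme A into the matrix, was at 3770, 3701, and 3605 normalised counts in control, 3208 and 2819 in Nrf2 KO, 2537 in both p65 KO libraries, and 3344, 3229, and 3211 in DKO. The p65 KO libraries were the lowest and did not overlap with any other genotype. The log2 fold change was -0.54 in p65 KO (SE 0.0983, edgeR adjusted p = 0.00689), -0.29 in Nrf2 KO (adjusted p = 0.321), and -0.18 in DKO (adjusted p = 0.250). The p65 KO call was lost with equal totals and without p65 KO 1 (adjusted p up to 0.0591). Slc25a16, another carrier linked to coenzyme A, did not pass in any comparison, at log2 fold changes against control of 0.01, 0.08, and -0.19.

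Among the carriers of acyl groups and coenzyme A, Slc25a17 and Slc25a20 were the members lower in both p65 KO and DKO. Their promoter windows are shown (Slc25a17 at chr15:81245065-81245314, minus strand, and Slc25a20 at chr9:108539047-108539296, plus strand). Each runs 5′ to 3′ over the 250 bases before the start of the canonical transcript on GRCm39. In these windows and that of Slc25a30, the bases nearest this start also lie within the annotated gene, which begins further upstream in other transcripts. Capitals mark a match to the NF-κB motif, from 49 to 40 bases before the start of the canonical transcript of Slc25a17, a stretch inside the annotated gene, and the Slc25a20 window held none of the motifs searched.
Slc25a17: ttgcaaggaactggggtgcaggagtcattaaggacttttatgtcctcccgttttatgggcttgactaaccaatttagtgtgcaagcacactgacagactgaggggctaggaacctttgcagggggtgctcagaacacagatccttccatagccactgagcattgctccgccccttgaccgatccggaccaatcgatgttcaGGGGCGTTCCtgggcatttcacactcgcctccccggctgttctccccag
Slc25a20: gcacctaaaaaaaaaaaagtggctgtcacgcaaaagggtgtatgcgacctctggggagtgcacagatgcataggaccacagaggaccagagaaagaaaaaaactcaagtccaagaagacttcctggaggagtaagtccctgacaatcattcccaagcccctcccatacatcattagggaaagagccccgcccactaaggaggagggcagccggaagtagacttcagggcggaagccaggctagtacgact

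Of 6 genes that work with Slc25a20 in the carnitine shuttle, 1 fell in Nrf2 KO, 4 fell in p65 KO, 5 fell in DKO, and none rose, beside the same 0.594%, 6.77%, and 2.84% of all tested genes. Crat, the carnitine acetyltransferase, was at 2565, 2164, and 1945 normalised counts in control, 1249 and 950 in Nrf2 KO, 560 and 582 in p65 KO, and 616, 640, and 1004 in DKO, with no overlap between any knockout and control. Its log2 fold changes were -1.02, -1.96, and -1.56 (edgeR adjusted p = 0.0748, 0.00102, and 0.00188). Cpt2, the inner membrane carnitine palmitoyltransferase, fell in all 3 genotypes, by 0.69, 0.91, and 0.88 on the log2 scale (adjusted p = 0.0478, 0.00313, and 0.00304). Crot, the peroxisomal carnitine octanoyltransferase, and Acsl1, a long-chain acyl-CoA synthetase, fell in p65 KO (log2 fold changes -1.41 and -0.63, adjusted p = 0.00209 and 0.0251) and DKO (-1.33 and -0.71, adjusted p = 0.00189 and 0.0179), and Slc22a5, the carnitine importer of the plasma membrane, fell in DKO (adjusted p = 0.0248). Cpt1a, the outer membrane enzyme of the shuttle, did not pass in any comparison, at log2 fold changes of -0.26, 0.50, and -0.04. Its p65 KO libraries, at 15654 and 15745 normalised counts, nevertheless lay above all controls, at 9279 to 14303. The calls of these 6 genes were not checked under the alternative analyses.

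Carriers of nucleotides and cofactors moved in both directions. Slc25a33, a pyrimidine nucleotide carrier, was at 1029, 741, and 927 normalised counts in control, 666 and 638 in Nrf2 KO, 663 and 452 in p65 KO, and 438, 442, and 316 in DKO. Every knockout library lay below the controls, and the DKO libraries lay below all others. It was 2.26-fold lower in DKO (log2 fold change -1.17, SE 0.185, edgeR adjusted p = 0.00644), a call that passed in all 19 alternatives. In p65 KO the log2 fold change was -0.69 (SE 0.206, adjusted p = 0.0469), a call that passed in 7 of 19 alternatives and was lost without control 1 or 3 or any Nrf2 KO or p65 KO library, and without DKO 1 (adjusted p over the alternatives up to 0.258). In Nrf2 KO it was -0.46 (adjusted p = 0.508). Of its 31-base stretches 5.87% also occur in other genes, the most in Crot (1.955%). Among the members that passed, this share was higher for Slc25a37 (7.62%, with 7.23% in Gm16867) and Slc25a20 (6.19%).

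Slc25a51, which imports NAD into mitochondria, was at 1331, 1039, and 1789 normalised counts in control, 1371 and 1071 in Nrf2 KO, 1626 and 1696 in p65 KO, and 2120, 4304, and 3092 in DKO. Only the DKO libraries lay above the controls, and they spread over a wide range. The level was 2.29-fold higher in DKO than in control (log2 fold change 1.19, SE 0.250, edgeR adjusted p = 0.0229), with -0.18 in Nrf2 KO (adjusted p = 0.907) and 0.26 in p65 KO (adjusted p = 0.555). The DKO call was lost without control 1, control 2, or DKO 2, and when only the 2 genotypes were fitted (adjusted p up to 0.0887). Its window (chr4:45408767-45409016, minus strand) is given as that of the only member more than 2-fold higher in DKO, with a CACGTG E-box in capitals from 51 to 46 bases before the start of the canonical transcript. The whole window lies inside the annotated gene, which begins further upstream in another transcript.
Slc25a51: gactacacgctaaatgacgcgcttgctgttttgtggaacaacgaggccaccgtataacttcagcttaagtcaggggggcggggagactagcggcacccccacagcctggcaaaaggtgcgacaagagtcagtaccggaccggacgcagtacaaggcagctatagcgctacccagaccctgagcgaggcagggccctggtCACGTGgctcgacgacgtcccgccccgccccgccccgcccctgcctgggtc

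The S-adenosylmethionine carrier Slc25a26, the folate or FAD carrier Slc25a32, and Slc25a47 did not pass in any comparison, with log2 fold changes against control between -0.32 and 0.52. Slc25a36, a second pyrimidine nucleotide carrier, was just inside the limit for members, with 1, 15, and 12 counts in control, 9 and 4 in Nrf2 KO, 41 and 35 in p65 KO, and 11, 20, and 16 in DKO. The p65 KO libraries were the highest, with a log2 fold change of 2.02 against control that did not pass (SE 0.753, edgeR adjusted p = 0.0947). Slc25a35 was next inside the limit, with 13 to 27 counts in control and 14 to 38 in the knockouts. Just outside it, Slc25a53 had at most 13 counts in any library, and Slc25a24, an ATP-Mg/phosphate carrier, had 1, 5, and 0 counts in control, 8 and 2 in Nrf2 KO, 17 and 22 in p65 KO, and 4, 4, and 7 in DKO. Slc25a2, Slc25a18, Slc25a31, and Slc25a41 had lower means, and Slc25a43 and Slc25a54 were at 0 in all libraries.

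Of the 5 carriers of basic and branched-chain amino acids and glycine, 1 rose in p65 KO and DKO. Slc25a44, which imports branched-chain amino acids, was at 2537, 2826, and 2603 normalised counts in control, 3430 and 3114 in Nrf2 KO, 3542 and 3797 in p65 KO, and 3764, 3313, and 4677 in DKO. All knockout libraries lay above all controls. The log2 fold changes were 0.47 in p65 KO (SE 0.139, edgeR adjusted p = 0.0468), 0.56 in DKO (SE 0.126, adjusted p = 0.0293), and 0.30 in Nrf2 KO (adjusted p = 0.547). These calls were lost without any 1 control and under several other alternatives, 9 of 19 in p65 KO (adjusted p up to 0.169) and 8 of 19 in DKO (up to 0.111). Slc25a29 and Slc25a45, which carry basic amino acids, and the glycine carrier Slc25a38 did not pass in any comparison, with log2 fold changes against control between -0.66 and 0.39. Slc25a15, the ornithine carrier of the urea cycle, had log2 fold changes of 0.12, 0.07, and 0.33 and did not pass (adjusted p = 0.145 in DKO). Of 7 urea cycle enzymes and their partners, 2 rose in p65 KO and 3 in DKO, beside 8.13% and 2.61% of all tested genes that rose. Asl, argininosuccinate lyase, was at 11414, 9246, and 13706 normalised counts in control and 19181, 24627, and 24820 in DKO (log2 fold change 1.00, adjusted p = 0.00791), and Ass1 and Cps1 were higher in DKO by 0.96 and 0.72 (adjusted p = 0.00310 and 0.0248).

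The 7 carriers of aspartate, glutamate, dicarboxylates, oxoglutarate, and citrate did not pass in any comparison. Their log2 fold changes against control lay between -0.34 and 0.35 in Nrf2 KO, -0.16 and 0.42 in p65 KO, and -0.25 and 0.30 in DKO. The largest in p65 KO was that of Slc25a22, a glutamate carrier, at 0.42 (edgeR adjusted p = 0.112), with 10324 and 8133 normalised counts in p65 KO above 6120 to 7355 in control. Among the 8 enzymes of the malate-aspartate and citrate shuttles that these carriers serve, 1 passed, Me1, the cytosolic malic enzyme. Me1 was lower in DKO, where 2.84% of all tested genes fell (log2 fold change -1.39, edgeR adjusted p = 0.0481). This call was not checked under the alternative analyses.

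Carriers of adenine nucleotides and phosphate did not pass either. Slc25a25, an ATP-Mg/phosphate carrier singled out after its values were seen, was at 17148, 11846, and 3367 normalised counts in control, 8942 and 10498 in Nrf2 KO, 4294 and 2594 in p65 KO, and 9092, 13703, and 9106 in DKO. Control 3 lay within the p65 KO range and the other controls far above it. The log2 fold change in p65 KO was -1.65 (SE 0.525, edgeR adjusted p = 0.0579). With 1 library left out it ranged from -1.14 without control 1 (adjusted p = 0.170) to -2.08 without control 3 (adjusted p = 0.00484), and without p65 KO 1 or p65 KO 2 the adjusted p was 0.154 or 0.251. Between DKO and p65 KO the log2 fold change was 1.63 (adjusted p = 0.109), with an adjusted p from 0.0199 without control 3 to 0.356 without p65 KO 2. Slc25a4, the ADP/ATP carrier of muscle and heart, was low in hepatocytes, at 22.1 to 28.0 in control and 53.8 and 49.1 in p65 KO (log2 fold change 1.01, adjusted p = 0.138). The phosphate carrier Slc25a3 had log2 fold changes of -0.04, -0.26, and -0.09.

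In the main analysis, iron and glutathione carriers did not pass against control, but 1 of them differed between DKO and p65 KO. Slc25a37, the mitochondrial iron importer mitoferrin, was at 1622, 1876, and 1211 normalised counts in control, 980 and 977 in Nrf2 KO, 1819 and 1783 in p65 KO, and 924, 972, and 1226 in DKO. The Nrf2 KO libraries lay below all controls, and the DKO libraries below all p65 KO libraries, while p65 KO overlapped with control. It was 1.73-fold lower in DKO than in p65 KO (log2 fold change -0.79, SE 0.174, edgeR adjusted p = 0.0343). Against control the log2 fold change was -0.68 in Nrf2 KO (adjusted p = 0.175), 0.20 in p65 KO (adjusted p = 0.470), and -0.59 in DKO (adjusted p = 0.0553). The call between DKO and p65 KO was lost in 8 of 19 alternatives, among them those without any 1 Nrf2 KO or p65 KO library and without DKO 1 or DKO 2 (adjusted p up to 0.141). Against control, Slc25a37 passed in DKO in 5 of 19 alternatives: DESeq2, equal totals, no filter, and without control 3 or DKO 3. In Nrf2 KO it passed in 2, DESeq2 and without control 3. Slc25a28, the other iron importer, and the glutathione carriers Slc25a39 and Slc25a40 had log2 fold changes against control between -0.11 and 0.38.

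The 4 remaining members did not pass in any comparison. Slc25a46, the outer membrane factor of mitochondrial fission, had log2 fold changes against control of -0.02, -0.28, and -0.31 (edgeR adjusted p = 0.978, 0.0920, and 0.0843). For Slc25a34, a carrier of unassigned substrate, the values were 157, 126, and 223 normalised counts in control, 83.0 and 50.1 in Nrf2 KO, 244 and 157 in p65 KO, and 90.5, 186, and 158 in DKO. The Nrf2 KO libraries were the lowest, at a log2 fold change of -1.35 (SE 0.383, adjusted p = 0.218). Slc25a48 had -0.35, -0.18, and -0.21, and Slc25a35 lay between -0.49 and 0.45.

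Motifs were sought on both strands of the 250 bases before the canonical transcript of 13630 genes. The antioxidant response element TGACNNNGC, the site bound by Nrf2, was found in 10.6% of all windows and in 8 of the 39 members' windows. The NF-κB motif was found in 8.28% and in 4 members, and the E-box CACGTG, which clock factors among others bind, in 7.57% and in 6 members. The D-box TTATGTAA, another clock-related element, was found in 0.594% and in 0 members. A match describes these letters only.

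**Figure D3:**
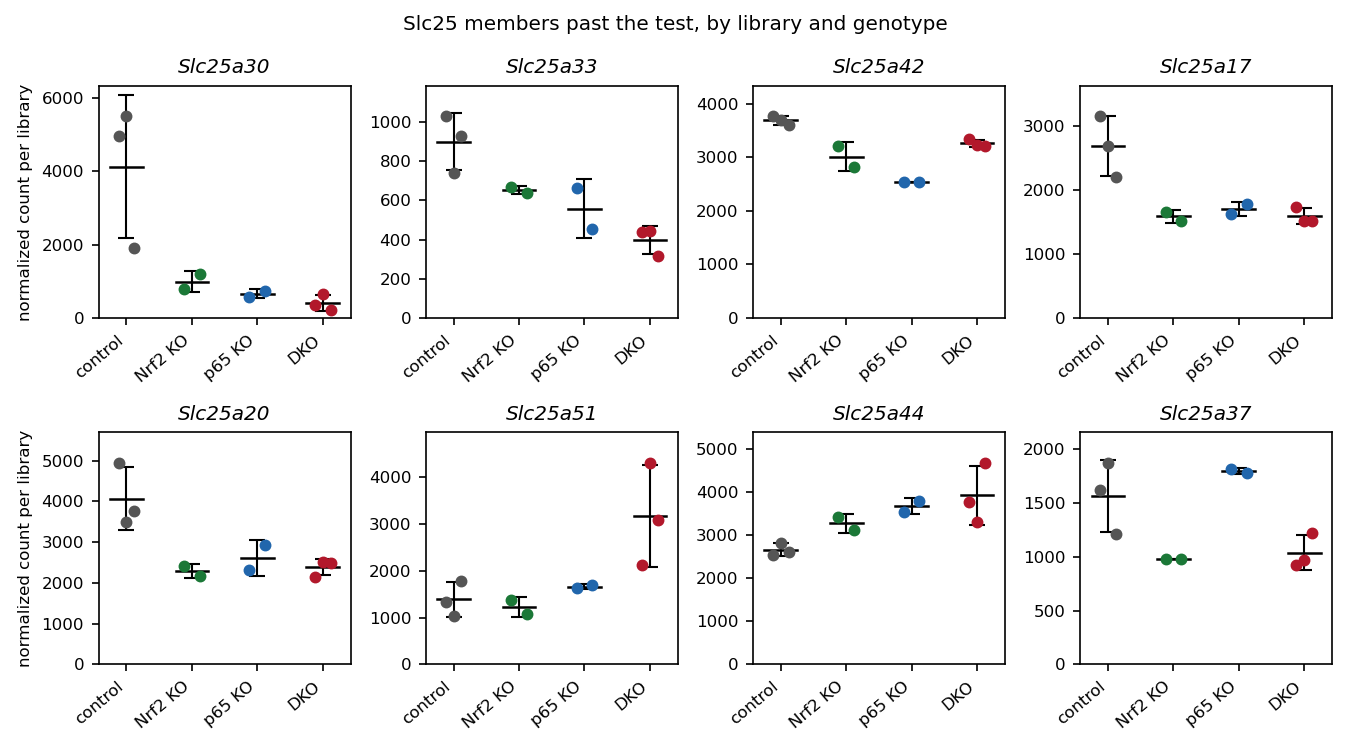
Normalised counts per library of the 8 members that passed the test in at least 1 comparison, with 1 point per library, the mean as a horizontal bar, and the SD as an error bar. Slc25a30, Slc25a33, Slc25a17, and Slc25a20 lie lower in DKO than in control, Slc25a51 and Slc25a44 higher, Slc25a42 is lowest in p65 KO, and Slc25a37 is lower in DKO than in p65 KO.

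The DKO libraries were also set against each single knockout, which asks what loss of the second factor adds. Against Nrf2 KO, 0 of 39 members passed edgeR's test, beside 0.513% of all tested genes, while 7 members had an unadjusted p under 0.05, limma called 0, and DESeq2 called 1, Slc25a51. The log2 fold change of Slc25a51 was 1.38 (SE 0.289, edgeR adjusted p = 0.0753), and all DKO libraries lay above both Nrf2 KO libraries. Against p65 KO, 1 member passed, Slc25a37, beside 4.11% of all tested genes, and 9 had an unadjusted p under 0.05. This count was 0 without any 1 Nrf2 KO or p65 KO library or without DKO 1, 2 without control 3, and 5 with equal totals, which moved the median of the genes averaging 10 counts or more by -0.27. The libraries did not overlap for 14 members in each of these comparisons, beside 32.2% and 38.6% of all tested genes. The members' median log2 fold change was 0.09 against Nrf2 KO and 0.04 against p65 KO, beside -0.01 and 0.02 over the genes averaging 10 counts or more.

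The interaction, which is the change from p65 KO to DKO minus the change from control to Nrf2 KO, passed edgeR's test for 0 of 39 members, beside 0.469% of all tested genes. An unadjusted p under 0.05 was found for 6 members, limma called 0, and DESeq2 called 1, Slc25a42. The interaction of Slc25a42 was 0.66 on the log2 scale (SE 0.138, edgeR adjusted p = 0.0766), the lowest adjusted p of the family. Its DKO libraries lay between those of p65 KO and control. The interactions of Slc25a17 and Slc25a20 were 0.66 (adjusted p = 0.214) and 0.69 (adjusted p = 0.244). For Slc25a33 the interaction was -0.02 (SE 0.287, adjusted p = 0.989).

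Related genes outside the symbol rule were examined for comparison. Of 3 expressed family members with other symbols, 1 passed, Mtch2, an outer membrane protein of the carrier fold, which was lower in p65 KO, where 6.77% of all tested genes fell (log2 fold change -0.47, edgeR adjusted p = 0.0214). Ucp2, an uncoupling protein, was at 361, 204, and 206 normalised counts in control and 88.0 and 74.4 in Nrf2 KO, without passing (-1.66, adjusted p = 0.211). Of 16 genes of the import route of carrier proteins, 1 rose and 2 fell in p65 KO, beside 14.9% of all tested genes that passed there, and 0 passed in Nrf2 KO and DKO, where 1 and 3 had an unadjusted p under 0.05. Timm13, a chaperone of the intermembrane space, was lower in p65 KO (-0.73, adjusted p = 0.00470). Of 12 other transporters of the inner membrane, 4 fell in p65 KO and 2 in DKO, beside 6.77% and 2.84% of all tested genes. Mcu, the pore of the calcium uniporter, fell in p65 KO (-0.95, adjusted p = 0.00327) and DKO (-0.63, adjusted p = 0.0189), and Mpc1, a subunit of the pyruvate carrier, fell in DKO (-0.63, adjusted p = 0.0216).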

How the data were processed

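RNA was measured in freshly isolated hepatocytes of 10 mice, with poly-A enriched, stranded, single-end libraries. The authors quantified reads with Salmon 1.10.3 against GRCm39 and GENCODE M33 gene models and deposited 1 estimated count per gene and library as a whole number. The table is named as normalised, but its library totals differ, and it was treated as unscaled estimated counts. Column names gave the mouse of each column, with 0 columns left over. The mice are separate animals.

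The 13641 genes whose counts summed to 10 or more entered edgeR 4.0.16 (R 4.3.3) after TMM scaling, in 1 quasi-likelihood model of the 4 genotypes, and Benjamini-Hochberg adjustment over all tested genes within each comparison. The SE is the log2 fold change divided by the square root of the F statistic. Genes named with a value in every library are the members with an adjusted p of at most 0.05 in any of 6 comparisons, the 5 most abundant members per kilobase, and those nearest the limit of 10 counts, with further members given by groups. Slc25a25, Slc25a34, Slc25a22, and Slc25a4 were chosen once their values were known. The members, lists, and tests were chosen with earlier results of these data known.

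Alternatives were DESeq2 1.42.0, limma 3.58.1 on log2(normalised count + 1), other scalings and filters, only the genotypes compared, the replicate number as a block, and leaving out each library, which made 19 in all. Calls of single genes outside the 39 members were not checked under these alternatives. Replicates differed by more than sampling noise (chi-square per degree of freedom of 44.8 to 204). Gene positions, transcript lengths, and promoter windows (before the canonical transcript of each gene) came from GENCODE M39 on GRCm39. Protein sequences were not analysed here. Values of 1 member, and the promoter window of another, are not reported here.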

Additional observations from a re-analysis of the deposited data

How the results depend on the processing

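Each comparison of the 39 members was repeated under 19 alternatives, 18 for the interaction. In the comparisons where a member passed the test, its log2 fold change had the same sign under all 19. The count of members past an adjusted p of at most 0.05 in Nrf2 KO, 1 in the main analysis, was 5 with DESeq2, 3 without a filter, 2 with limma, and 0 with equal totals, upper quartile scaling, or only the genotypes compared. With a log2 fold change of at least 1 it was 2 with DESeq2 and 1 without a filter, instead of 0. In p65 KO it was 3 with equal totals instead of 6, and 2 with the fold limit instead of 1 under DESeq2 and without a filter. In DKO the counts of 6 and 3 stayed within 1.5 times under every alternative other than leaving out a library. Between DKO and Nrf2 KO both counts were 1 instead of 0 with DESeq2 and without a filter. Between DKO and p65 KO the count was 3 with DESeq2, 2 with limma, 5 with equal totals, and 0 with only the genotypes compared, instead of 1, and with the fold limit 1 with equal totals instead of 0. For the interaction DESeq2 called 1 member instead of 0. The cause of these differences was not tested.

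With 1 library left out, the counts ranged from 0 to 3 in Nrf2 KO (0 to 1 with the fold limit), 0 to 6 in p65 KO (0 to 2), 3 to 6 in DKO (2 to 3), 0 to 1 between DKO and Nrf2 KO (0 to 1), 0 to 2 between DKO and p65 KO (0 to 1), and 0 to 0 for the interaction (0 to 0). Where this left a genotype with 1 library, that library was assumed to vary like the others.

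The numbers of the replicates were not used to pair the libraries in the main analysis. Libraries of the same number had correlations of their deviations from the group means between -0.23 and 0.11. Between libraries of different numbers these lay between -0.17 and 0.23. In a genotype with 2 libraries the deviations mirror each other, so these correlations cannot decide whether the numbers pair the mice. With the replicate number as a block, 2 members passed in Nrf2 KO (1 with the fold limit), 2 passed with the fold limit in p65 KO, 0 passed between DKO and p65 KO, and 1 passed for the interaction (1 with the fold limit).

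The summed normalised count of the members was 150036 in p65 KO with equal totals, 133480 with upper quartile scaling, and 134634 with DESeq2 size factors, instead of 133310, and 135952 in DKO with equal totals instead of 145343. Each genotype had 2 or 3 libraries, and members near the limit of 10 counts were measured with few reads.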

Other observations

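Positions of the members relative to the targeted genes were also read from the annotation. Slc25a12, an aspartate/glutamate carrier on chromosome 2, starts 4.40 Mb from Nfe2l2. It was at 564, 481, and 576 normalised counts in control, 677 and 700 in Nrf2 KO, 539 and 547 in p65 KO, and 630, 697, and 665 in DKO. All libraries with floxed Nfe2l2 lay above all others, at log2 fold changes against control of 0.35 in Nrf2 KO and 0.30 in DKO that did not pass (edgeR adjusted p = 0.325 and 0.130), and 0.01 in p65 KO. Slc25a45, a carrier of methylated basic amino acids on chromosome 19, starts 0.240 Mb from Rela. Its log2 fold changes against control were 0.38 (Nrf2 KO), -0.41 (p65 KO), and 0.32 (DKO), and none passed (adjusted p = 0.744, 0.323, and 0.445).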
